A study of Mus musculus with 14 samples.

Results

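The change over 2 weeks of puberty was taken from 3 arrays of 6-week-old mammary gland (6wk A, B and C) against 3 arrays of 4-week-old gland (4wk A, B and C), which are 6 of the 14 arrays of the series. The comparison covers the 20380 probe sets, of 22690 in the table, that name 1 gene and are not controls, and with them 12393 genes. Every array carried RNA from whole inguinal gland number 4, with the lymph nodes taken out, of female CD1 mice, an outbred strain, that had received no treatment. RNA of 3 mice or more was pooled for every array. The labels leave unsaid whether pools share mice, and p-values reflect only how pools differ. The other 8 arrays are 3wk A to C, 5wk A and B, and 7wk A to C, made in the same way. They entered the fit so that all ages share 1 estimate of the spread.

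At weaning the mouse mammary gland is a small tree of ducts at one edge of a pad of fat. From the onset of ovarian function, oestrogen, growth hormone and locally made growth factors drive the ends of the ducts to grow and branch through the pad, and progesterone later adds side branches and early alveolar cells. The ducts have an inner luminal layer, some of whose cells carry hormone receptors, and an outer basal layer of contractile myoepithelial cells. The pad holds white adipocytes, vessels, nerves and immune cells, and in young mice also brown-like adipocytes that burn fat for heat.

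Values are ratios of a probe set on 1 array to the median of that probe set over all 14 of them, which allows a comparison of ages for a gene but not of levels between genes. A difference is the 6wk mean minus the 4wk mean of the log2 ratios, with the standard error (SE) of the limma fit and n = 3 arrays at each age. A probe set or gene is said to have risen or fallen where the Benjamini-Hochberg adjusted p of that fit was under 0.05, and it is called in that case. Of the 20380, 16908 were tested, and the rest were too dim on all arrays or on all but 1. They name 10676 genes, and gene values are means over the tested probe sets of a gene. The tissue label was checked against marker lists. All 31 measured luminal markers, all 21 measured basal markers and all 19 measured adipocyte markers were bright enough to be tested, against 15 of 25 for skin keratinocytes and 20 of 29 for skeletal muscle. In whole gland, fewer cells of a type and less RNA per cell cannot be told apart.

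The control probe sets for RNA length separated the 2 ages. Each control transcript has a probe set near its 5' end and another near its 3' end, and a low 5' to 3' ratio marks shorter RNA or shorter labelled copies. For actin the log2 ratio was −0.457, −0.792 and −0.085 on the 6wk arrays (A, B, C in this order, as everywhere), against 0.281, 0.233 and 0.096 on the 4wk arrays. For pyruvate carboxylase it was −2.78, −2.51 and −1.81 on the 6wk arrays and 0.081, 0.443 and 0.455 on the 4wk arrays. The ages did not overlap for actin (difference −0.648), for pyruvate carboxylase (−2.69) or for Gapdh (−0.296), each with an exact permutation p of 0.1, two-sided, which is the smallest that 3 arrays against 3 allow. They overlapped for the transferrin receptor (difference 0.453, exact permutation p = 0.5) and for the mean of 18 hybridisation spikes (−0.846, exact permutation p = 0.2). The 3 6wk arrays lay below all other arrays of the series for pyruvate carboxylase, so this ratio and the age cannot be told apart. For actin, 6wk C lay within the range of the 3wk and 5wk arrays. A fit with the actin ratio as a covariate is therefore given beside the results, together with a fit in which 6wk A and B are left out. The latter has only 1 array at 6wk, and its spread is estimated from the other ages, so its calls rest on 1 pool at 6wk. That array, 6wk C, still lay below all other ages for pyruvate carboxylase (−1.81).

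**Figure D1:**
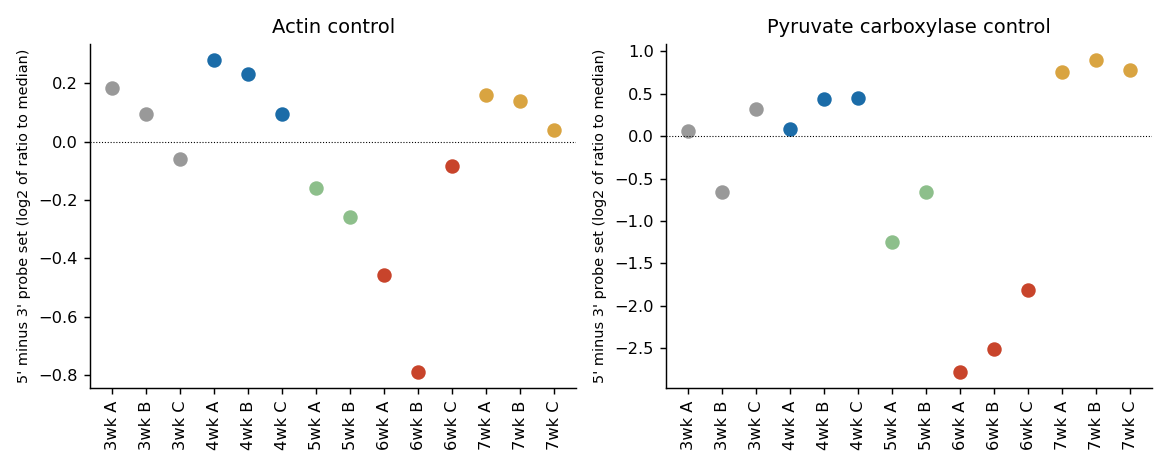
Ratio, as log2, of 5' over 3' control probe set on each of the 14 arrays for actin (left) and pyruvate carboxylase (right). Each point is 1 array, coloured by age, and 6wk A and B have the lowest actin ratios (−0.457 and −0.792) while all 3 6wk arrays are lowest for pyruvate carboxylase (−2.78, −2.51 and −1.81).

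From 4wk to 6wk, 19 of 31 luminal genes and 9 of 23 milk genes rose, while 10 of 13 brown adipocyte genes, 8 of 22 genes of fatty acid synthesis and 18 of 44 genes of the respiratory chain and citric acid cycle fell. Of 18492 probe sets tested, 1491 were called (8.06%), 769 higher (4.16%) and 722 lower (3.9%) at 6wk. Among those that name 1 gene, 717 of 16908 rose (4.24%) and 664 fell (3.93%), and these 1381 (8.17%) name 1193 genes. The median difference of the rises was 0.89 and that of the falls −0.91, with 287 rises and 281 falls of at least 2-fold. Tested by gene, 446 of 10676 genes rose (4.18%) and 354 fell (3.32%), and the median over all genes was 0.04. The arrays of both ages did not overlap for 28.2% of all genes.

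The size of the differences and the number of calls behaved differently when the actin ratio entered the fit. All 1491 differences kept their direction, but the median SE over all probe sets grew from 0.22 to 0.38, and 82 of them were still called. In all, 91 probe sets were called in that fit (0.492%), and by gene 0.244% rose and 0.347% fell. Without 6wk A and B, 336 probe sets were called (1.82%) and by gene 0.946% rose and 0.88% fell. Of these 336, 290 were among the 1491, in the same direction. With the pyruvate carboxylase ratio as a covariate 1420 of the 1491 differences kept their direction and the limma fit called 0, with a lowest adjusted p of 0.0857 and 1324 probe sets at an unadjusted p under 0.05. The part of RNA length in single calls was not tested beyond these fits.

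Of the 12 largest rises 3 were of caseins. Csn1s2a, which encodes a calcium-binding casein of milk, stood at ratios of 0.0195, 0.0351 and 0.0654 at 4wk and at 1.091, 4.25 and 2.645 at 6wk, a rise of 6.02 (SE 0.57, adjusted p = 0.000371). Csn1s1, another casein, had 0.24, 0.127 and 0.248 at 4wk and 1.923, 3.287 and 5.938 at 6wk, a rise of 4.09 (SE 0.58). Csn2, the beta casein, had 0.14, 0.0987 and 0.134 at 4wk and 0.714, 2.164 and 5.841 at 6wk, a rise of 4.08 (SE 0.57). The 4wk arrays were tight for Csn2 and the 6wk arrays spread widely, with 6wk A lowest. Only probe sets whose ages did not overlap could be among the 12, so this holds for all of them by selection. With the actin ratio in the fit Csn1s2a gave 5.57 (adjusted p = 0.0506) and Csn1s1 4.40 (adjusted p = 0.103), which were not called. Csn2 gave 5.36 there (adjusted p = 0.0417).

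Clca1, a secreted protein of mucous epithelia, was measured at 0.122, 0.134 and 0.182 at 4wk and 3.915, 1.63 and 6.318 at 6wk, a rise of 4.58 (SE 0.82, adjusted p = 0.00816). Il17b, a secreted cytokine of the interleukin 17 family, went from 0.129, 0.0638 and 0.917 to 2.267, 4.343 and 8.634, a rise of 4.49 (SE 0.80). Its 4wk C array was far above 4wk A and B. Krt15, a keratin of basal and progenitor cells of stratified epithelia, rose by 4.42 (SE 0.71, adjusted p = 0.00452). It went from 0.73, 0.395 and 1.007 to 10.14, 17.68 and 15.94. Clca1, Il17b and Krt15 were not called with the actin ratio in the fit. They differed there by 5.87 (adjusted p = 0.106), 4.53 (adjusted p = 0.214) and 3.71 (adjusted p = 0.239).

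Cldn8, a claudin of tight junctions, had 0.0554, 0.0666 and 0.315 at 4wk and 1.919, 1.947 and 2.206 at 6wk, a rise of 4.26 (SE 0.62). The 6wk arrays lay close together and the 4wk arrays did not, with 4wk C the highest. Cldn8 was not called with the actin ratio in the fit (3.27, adjusted p = 0.217). Mycl, which encodes a relative of the MYC transcription factor, was even on both sides, at 0.0996, 0.0883 and 0.0976 on the 4wk arrays and 1.493, 0.987 and 1.578 on the 6wk arrays. Its rise of 3.80 (SE 0.22) had an adjusted p of 1.47e-05, the smallest of the comparison, which it shares with Gnaz. In Mycl that p belongs to 1 of 3 tested probe sets of Mycl, and the other 2 gave differences of 0.25 and 0.42.

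The remaining large rises were those of Crabp2, a carrier of retinoic acid inside cells, by 3.66 (SE 0.39), and of Wnt4, the ligand through which progesterone acts on neighbouring cells, by 3.46 (SE 0.68). Trim46, a protein of the microtubule skeleton, rose by 3.20 (SE 0.42) and Mal2, a protein of transport to the apical membrane, by 3.20 (SE 0.51). Wnt4 stood at 0.0616, 0.119 and 0.524 at 4wk and at 1.341, 2.057 and 1.849 at 6wk. Its call was lost without 4wk B (3.26, adjusted p = 0.0541). The fit with the actin ratio did not call Wnt4 (2.60, adjusted p = 0.407) or Mal2 (2.81, adjusted p = 0.223). It did call Crabp2 (4.47, adjusted p = 0.0301) and Trim46 (4.15, adjusted p = 0.0377). Gnaz, a G protein subunit, went from 0.269, 0.311 and 0.252 to 2.25, 1.964 and 2.046 (2.91, SE 0.17, adjusted p = 1.47e-05), and Pla1a, a phospholipase, from 0.36, 0.397 and 0.4 to 1.416, 1.122 and 1.693.

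Of the 12 largest falls 10 were of 1 probe set among several tested for a gene, against 3 of the 12 largest rises. Fscn1, which bundles actin filaments, had the largest fall, from 3.407, 3.057 and 2.88 to 0.0528, 0.0735 and 0.0688, a fall of 5.59 on the log2 scale (SE 0.61, adjusted p = 0.000687). Its other 3 probe sets gave differences from −2.62 to −0.24. Ppara, the nuclear receptor that switches on fatty acid oxidation, had 1 probe set, which went from 7.566, 6.854 and 4.901 to 0.154, 0.218 and 0.157, a difference of −5.19 (SE 0.33, adjusted p = 2.97e-05). All 3 arrays of each age were close together for both genes.

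Kcnk3, a background potassium channel found in brown adipocytes, went from 2.045, 1.278 and 1.657 to 0.0243, 0.0695 and 0.0753, a difference of −5.02 (SE 0.41), and its other 2 probe sets gave −2.22 and −1.68. Malat1, an abundant long noncoding RNA of the nucleus, went from 2.439, 3.702 and 0.87 to 0.146, 0.129 and 0.0575, a difference of −4.27 (SE 0.53), with −3.18 to −1.03 for the other 4. Ywhag, an adaptor protein of the 14-3-3 family, went from 1.237, 1.242 and 1.706 to 0.0531, 0.0548 and 0.271. This fall of 3.90 (SE 0.50) was not matched by the other 2 probe sets of Ywhag, which gave −0.33 and −0.22. The same probe set gave −2.27 (adjusted p = 0.17) with the actin ratio in the fit and −2.35 without 6wk A and B. With the actin ratio the named probe set of Kcnk3 gave −4.97 (adjusted p = 0.0307) and that of Malat1 −4.41 (adjusted p = 0.0868).

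Acaca, the enzyme of the first committed step of fatty acid synthesis, had 1 probe set, at 1.971, 2.105 and 2.569 at 4wk and 0.209, 0.265 and 0.243 at 6wk, a difference of −3.21 (SE 0.26, adjusted p = 0.000152). Tpcn1, an ion channel of endosomes, differed by −3.35 (SE 0.24) and Pcyt1a, the rate-limiting enzyme of phosphatidylcholine synthesis, by −3.32 (SE 0.38). Clasp1, which binds the ends of microtubules, differed by −3.29 (SE 0.41), while its only other probe set gave 0.16. With the actin ratio in the fit Tpcn1 and Clasp1 were still called, and Pcyt1a was not (−3.14, adjusted p = 0.0891).

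3 falls of this size rested on some of the arrays. Nfic, a transcription factor of the nuclear factor I family, had 2.005, 1.265 and 1.153 at 4wk and 0.0449, 0.0389 and 0.523 at 6wk (−3.88, SE 0.78), and lost its call without 4wk A (−3.64, adjusted p = 0.0515) or 6wk A (−3.33, adjusted p = 0.0505). Ccnd2, a D-type cyclin, had 0.0988, 0.661 and 0.0248 on the 6wk arrays (−3.60, SE 0.84) and lost its call without 4wk A, 4wk B, 4wk C or 6wk A (adjusted p from 0.0516 to 0.0881). Fam20b, a kinase of proteoglycan synthesis, had 0.0637, 0.0774 and 0.416 (−3.48, SE 0.80) and lost its call without any 1 of 4wk A, B and C and 6wk A and B (adjusted p from 0.0541 to 0.082). The other probe set of Fam20b gave 0.24. With the actin ratio in the fit Nfic differed by −0.59 (adjusted p = 0.793), Fam20b by −1.39 (adjusted p = 0.714) and Ccnd2 by −7.00 (adjusted p = 0.0156). Without 6wk A and B they differed by −1.45 (adjusted p = 0.15), −1.77 (adjusted p = 0.413) and −5.85 (adjusted p = 6.76e-05).

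**Figure D2:**
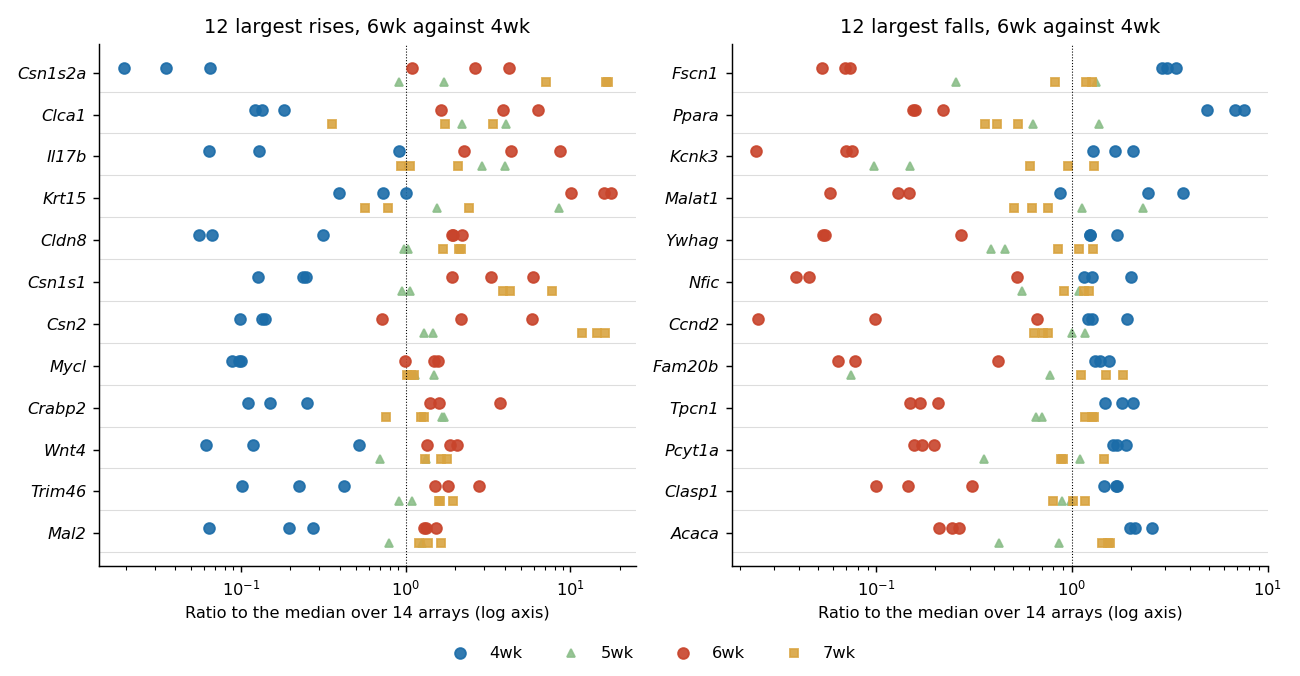
Ratios on single arrays, on a log axis, for the probe sets with the 12 largest rises (left) and falls (right) among called ones whose 4wk and 6wk arrays do not overlap. Large circles are the 3 4wk and 3 6wk arrays, small triangles the 2 5wk and small squares the 3 7wk arrays. Krt15 is back near its 4wk level at 7wk (0.564 to 2.409). Fscn1 at 7wk (0.817 to 1.265) lies between its 6wk and its 4wk ratios.

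Luminal epithelium had the highest median of the 29 lists. Of 31 luminal and pan-epithelial genes tested, of 32 on the list, 19 rose and 0 fell, and all 31 differences were above 0, against 4.18% of all genes that rose. The median difference was 1.42. The 4wk and 6wk arrays did not overlap for 27 of the 31 genes, against 28.2% of all genes. Epcam, an adhesion molecule of epithelia, went from 0.424, 0.302 and 0.529 to 1.35, 1.17 and 1.88 (1.82, SE 0.27, adjusted p = 0.00365), and Cdh1, the cadherin of epithelial junctions, from 0.401, 0.437 and 0.477 to 1.33, 1.3 and 1.66 (1.70, SE 0.22). Elf5, a transcription factor of luminal progenitors and alveolar cells, went from 0.642, 0.423 and 0.497 to 1.6, 1.27 and 2.45 (1.73, SE 0.29). Esrp1, a splicing factor of epithelia, rose by 1.89 (SE 0.21), and the luminal keratins Krt18 and Krt19 by 1.26 (SE 0.23) and 1.91 (SE 0.34).

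Krt8, the partner of Krt18 in luminal filaments, rose by 1.49 (SE 0.34, adjusted p = 0.0243), but not without 4wk A, 4wk B, 6wk A or 6wk C (adjusted p from 0.0551 to 0.0951). Leaving out single arrays gave 13 to 21 luminal genes that rose. Once the actin ratio entered the fit the median of the list was 1.45 and 2 rose, Elf5 (2.64, adjusted p = 0.0278) and Cldn7, a claudin (2.11, adjusted p = 0.0353). Without 6wk A and B, 11 rose.

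Of 21 basal and myoepithelial genes tested, 5 rose and 0 fell, against 4.18% and 3.32% of all genes. Their median was 0.83, with 16 differences above 0 and 5 below. Krt14, the keratin of basal cells, went from 0.61, 0.656 and 0.64 to 1.15, 1.45 and 1.35 as the mean of 3 probe sets (1.04, SE 0.21, adjusted p = 0.0141), with single probe sets from 0.07 to 1.63. The contractile genes Acta2 and Cnn1 rose by 0.99 (SE 0.20) and 1.38 (SE 0.29), and Krt17, a keratin of basal cells, by 2.47 (SE 0.67). Acta2 lost its call without 4wk B (adjusted p = 0.0616), Cnn1 without 4 of the 6 arrays and Krt17 without any 1 of 9 of the 14 arrays (adjusted p from 0.0535 to 0.136), and the list had 2 rises without any 1 of 4wk A, 4wk B, 6wk B and 6wk C. In the fit with the actin ratio 0 rose, at a median of 1.01.

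Of the genes that carry or answer hormone signals, Esr1 and Pgr, the receptors of oestrogen and progesterone, did not pass the test. Esr1 differed by 0.48 (SE 0.68, adjusted p = 0.722) and Pgr by 0.66 (SE 0.50, adjusted p = 0.47), and their arrays overlapped. Of the 17 genes of the hormone list tested, 6 rose and 0 fell, against 4.18% and 3.32% of all genes. Their median was 1.14. Foxa1, the factor that opens chromatin for the oestrogen receptor, rose by 1.41 (SE 0.26), from 0.539, 0.59 and 0.579 to 1.57, 1.65 and 1.33. Stc2, a secreted glycoprotein that responds to oestrogen, rose by 1.76 (SE 0.17, adjusted p = 0.00062), and it is the 1 gene of this list called with the actin ratio in the fit (1.79, adjusted p = 0.0446). The others were Il17b, Wnt4, Cxcl15, a chemokine of epithelia (2.52, SE 0.30), and Ltf, the iron-binding lactoferrin (1.88, SE 0.27). Areg, the growth factor that relays oestrogen in the duct, was not analysed here.

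Of 23 milk genes tested 9 rose and 0 fell, with a median of 0.89, against 4.18% and 3.32% of all genes that rose and fell. Beside the 3 caseins these were Btn1a1, a butyrophilin coating milk fat globules (1.61, SE 0.30), Mfge8, another protein of that globule (1.11, SE 0.16), Wfdc18, a protease inhibitor of the gland (1.47, SE 0.26), Ceacam10, an adhesion protein (1.93, SE 0.44), Folr1, a folate receptor (0.89, SE 0.15), and Ltf. Wap, the whey acidic protein, did not pass the test, at 0.774, 0.645 and 1.07 on the 4wk arrays and 0.805, 0.998 and 1.09 on the 6wk arrays (0.24, SE 0.28, adjusted p = 0.662). Ceacam10 lost its call without any 1 of 4wk A, 4wk B and the 3 6wk arrays (adjusted p from 0.0546 to 0.087). By gene, 0 milk genes were called with the actin ratio, at a median of 1.16, and 5 were without 6wk A and B.

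Since the caseins moved together, the sequence around their start sites is shown. The 3 called caseins lie near each other on chromosome 5, and each promoter below runs from 150 bases before to 30 bases after the start (RefSeq, GRCm38.p6, 180 bases, 5′ to 3′ on the gene's strand). The windows are chr5:87666058-87666237 on the plus strand for Csn1s1, chr5:87699396-87699575 on the minus strand for Csn2 and chr5:87774300-87774479 on the plus strand for Csn1s2a. Capitals mark TTCNNNGAA, the palindrome that Stat5, the factor switched on by prolactin, is known to bind.
Csn1s1: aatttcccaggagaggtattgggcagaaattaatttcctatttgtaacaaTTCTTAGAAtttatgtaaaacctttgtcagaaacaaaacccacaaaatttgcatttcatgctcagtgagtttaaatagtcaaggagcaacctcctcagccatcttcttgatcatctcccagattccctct
Csn2: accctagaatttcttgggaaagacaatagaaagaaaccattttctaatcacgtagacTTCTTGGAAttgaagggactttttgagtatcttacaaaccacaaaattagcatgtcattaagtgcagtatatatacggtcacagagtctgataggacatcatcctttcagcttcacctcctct
Csn1s2a: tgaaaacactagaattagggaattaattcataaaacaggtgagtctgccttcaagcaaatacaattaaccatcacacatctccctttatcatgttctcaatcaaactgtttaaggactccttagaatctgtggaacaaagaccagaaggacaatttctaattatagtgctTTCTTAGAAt
The match begins 100 bases before the start in Csn1s1, 93 bases before it in Csn2 and at base 21 after it in Csn1s2a. The motif reads the same on both strands.

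Over windows of 250 bases before to 50 bases after a start, 8.3% of all 32851 promoters given (2726) hold at least 1 match. Promoters were given for 20 genes of the milk list, 24 promoters in all, and 5 hold a match: the 3 caseins above, Glycam1, a mucin-like milk protein, and Pigr, the receptor that carries immunoglobulin A into milk. Neither Glycam1 nor Pigr was called between 4wk and 6wk. Of the milk genes that rose, 7 had 8 promoters given, and 3 of those 8 hold the match. A match is a string of letters and not a site of binding.

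Ligands and matrix enzymes of duct growth rose in part. Of 54 branching and guidance genes tested, 10 rose and 1 fell, against 4.18% and 3.32% of all genes. Their median was 0.21. Ptn, a heparin-binding growth factor, went from 0.529, 0.424 and 0.514 to 1.18, 1.17 and 1.36 (1.34, SE 0.27), and Wnt5b, a Wnt ligand, from 0.444, 0.211 and 0.578 to 1.08, 1.32 and 2.23 (1.96, SE 0.39). Tgfb2, a ligand of the TGF-beta family, rose by 1.10 (SE 0.21), Erbb2, a receptor tyrosine kinase, by 0.60 (SE 0.13), and Msx2, a homeobox factor of mammary buds, by 2.23 (SE 0.57). Msx2 lost its call without any 1 of 8 arrays, among them all 3 at 6wk (adjusted p from 0.052 to 0.0958), and Ptn without 4wk B (adjusted p = 0.0612). Igf1, the growth factor that relays growth hormone, was the member that fell, from 1.25, 1.31 and 1.35 to 0.944, 0.797 and 0.713 (−0.68, SE 0.14), and it lost its call without 4wk B (adjusted p = 0.0534). The branching list had 3 rises without 4wk B and 5 without any 1 of 4wk A and the 3 6wk arrays, and 0 were called with the actin ratio or without 6wk A and B.

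Of 23 matrix proteases and inhibitors, 6 rose and 0 fell, against 4.18% and 3.32% of all genes. Their median was 0.18, with 13 differences above 0 and 10 below. Mmp16, the largest called rise, lost its call without any 1 of 7 arrays (differences from 1.14 to 1.32, adjusted p from 0.0545 to 0.115). Mmp2, a gelatinase, rose by 0.88 (SE 0.16), from 0.778, 0.654 and 0.858 to 1.53, 1.21 and 1.47. Mmp3, stromelysin, rose by 1.02 (SE 0.24) and lost its call without 4wk A, 4wk B or 6wk C (adjusted p from 0.0771 to 0.11). Ctsk, a collagen-degrading cathepsin, rose by 0.75 (SE 0.14) and Plat, a plasminogen activator, by 0.81 (SE 0.14). The list had 3 rises without 4wk A, 4wk B or 6wk C, and 0 in the fits with the actin ratio and without 6wk A and B.

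Basement membrane genes went both ways, with 1 rise and 5 falls among 21, where 4.18% of all genes rose and 3.32% fell. Lama3, a laminin chain of epithelia, rose by 1.08 (SE 0.15), from 0.819, 0.659 and 0.805 to 1.5, 1.59 and 1.71. Hspg2, the core protein of perlecan, fell from 1.52, 1.58 and 1.54 to 0.77, 0.535 and 0.908 (−1.10, SE 0.18), and Lama4, a laminin chain of vessels and fat, differed by −0.95 (SE 0.21). Lama4 lost its call without 4wk A, 4wk B, 6wk A or 6wk B (adjusted p from 0.061 to 0.0662). Hspg2 differed by −0.45 (adjusted p = 0.378) with the actin ratio in the fit and by −0.77 (adjusted p = 0.0622) without 6wk A and B, while Lama3 gave 1.12 (adjusted p = 0.108) and 1.17 (adjusted p = 0.0362). 1 gene of the list fell without 4wk A, 4wk B or 6wk B, and 0 were called with the actin ratio. Fibrillar matrix, with 31 genes tested, had 1 rise, Thbs2, a thrombospondin (1.28, SE 0.24), and 1 fall, Col5a3, a collagen chain (−0.74, SE 0.20), which lost its call in 12 of 14 fits that each left out 1 array (adjusted p from 0.0561 to 0.129).

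**Figure D3:**
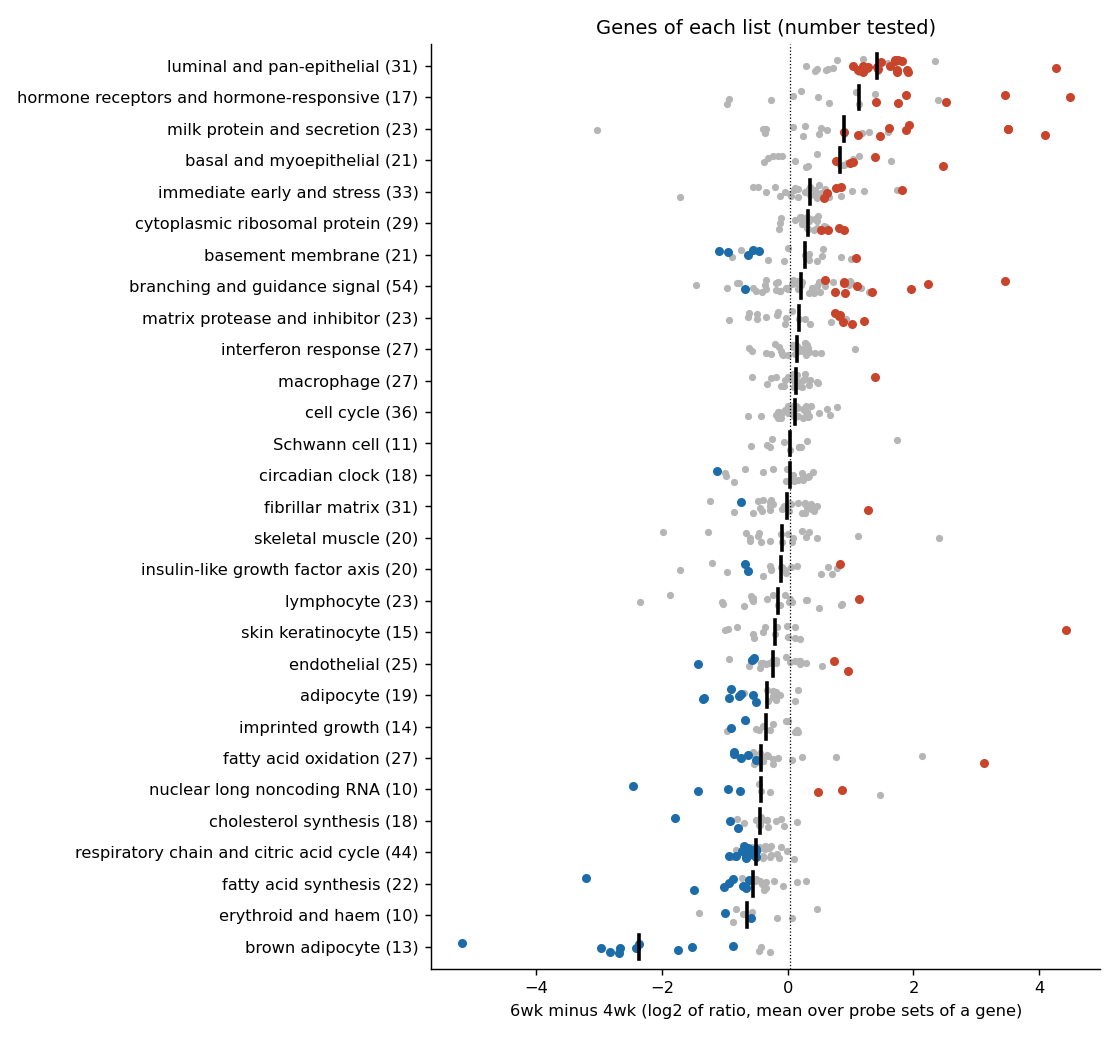
Difference of each tested gene between 6wk and 4wk on the log2 scale, by list, with the number tested in brackets and lists ordered by their median (black bars). Red points rose and blue points fell at an adjusted p under 0.05, grey points did not pass, vertical scatter within a list is for display, and the dotted line is the median over all 10676 genes (0.04); the medians run from −2.37 for brown adipocytes to 1.42 for luminal genes.

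Thermogenic fat had the lowest median of the 29 lists. Of 13 brown adipocyte genes tested, of 19 on the list, 10 fell and 0 rose, with a median of −2.37, against 3.32% of all genes that fell. Of the rest, 2 were below the level limit and 4 were not analysed here. Ucp1, the uncoupling protein that turns the proton gradient into heat, went from 2.63, 5.58 and 3.96 to 0.435, 0.8 and 0.629 (−2.68, SE 0.57, adjusted p = 0.0182). Cidea, a lipid droplet protein, went from 2.14, 2.28 and 2.0 to 0.405, 1.07 and 0.596 (−1.75, SE 0.30). Cox7a1, a cytochrome oxidase subunit of muscle and brown fat, went from 3.05, 4.6 and 3.87 to 0.791, 0.969 and 0.471 (−2.41, SE 0.27), and Fabp3, a fatty acid carrier, from 2.73, 7.18 and 4.69 to 0.96, 0.795 and 0.866 (−2.37, SE 0.34).

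The smallest called fall of the list was that of Ppargc1a, the coactivator of mitochondrial genes (−0.87, SE 0.21). Ucp1 lost its call without 4wk B (−2.42, adjusted p = 0.0737) or 6wk A (−2.45, adjusted p = 0.0646), and the list had 5 falls without 4wk B and 6 without 6wk A. Given the actin ratio, 5 of the 13 fell at a median of −2.43, among them Ppara (−5.29, adjusted p = 0.0113), Cox7a1 (−3.22, adjusted p = 0.0113) and Kcnk3 (−3.14, adjusted p = 0.0485). Without 6wk A and B, 5 also fell.

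Among markers of white fat, Adipoq, the adipocyte hormone adiponectin, stood at 1.15, 1.06 and 0.979 at 4wk and 0.97, 0.958 and 0.973 at 6wk, a difference of −0.13 (SE 0.10, adjusted p = 0.481). Of 19 adipocyte genes 8 fell and 0 rose, with a median of −0.33, against 3.32% of all genes that fell. Slc2a4, the insulin-responsive glucose transporter, went from 1.43, 1.29 and 1.46 to 0.446, 0.679 and 0.539 (−1.35, SE 0.17, adjusted p = 0.0018), and Gpd1, which makes the glycerol backbone of triglyceride, from 1.25, 1.1 and 1.59 to 0.381, 0.619 and 0.567 (−1.34, SE 0.21). Lipe, the hormone-sensitive lipase, differed by −0.91 (SE 0.18), Acvr1c, an activin receptor of adipocytes, by −0.94 (SE 0.18) and Dgat2, which closes triglyceride synthesis, by −0.78 (SE 0.12). The 3 probe sets of Gpd1 ran from −2.84 to 0.04. Dgat2 is the 1 gene of this list called with the actin ratio (−1.12, adjusted p = 0.0364), 2 fell without 6wk A and B, and 5 without 4wk A or 4wk B.

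Of 22 genes of fatty acid synthesis 8 fell and 0 rose, against 3.32% of all genes that fell. Their median was −0.56, with 20 of 22 below 0. Scd2, a desaturase, went from 1.54, 1.34 and 1.32 to 0.495, 0.49 and 0.508 as the mean of 3 probe sets (−1.49, SE 0.12, adjusted p = 0.000178). Its probe sets ran from −3.00 to −0.44. Mlxipl, the carbohydrate-responsive factor of lipogenic genes, went from 1.61, 1.28 and 1.26 to 0.626, 0.766 and 0.666 (−1.01, SE 0.15). Acacb, the mitochondrial acetyl-CoA carboxylase, differed by −0.94 (SE 0.16) and Gpam, the first enzyme of glycerolipid synthesis, by −0.87 (SE 0.13). Acly, which makes cytosolic acetyl-CoA, differed by −0.72 (SE 0.16), and Scd1, the main desaturase of fat, by −0.61 (SE 0.13). The fit with the actin ratio called 5 of the 22 lower (Acaca, Scd2, Gpam, Acly and Acss2), at a median of −0.77, and without 6wk A and B 6 fell. The count was 5 without 4wk A or 4wk B.

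Of 18 cholesterol synthesis genes 3 fell and 0 rose, against 3.32% of all genes that fell. Their median was −0.44, with 17 below 0. Mvk, mevalonate kinase, went from 1.25, 1.11 and 1.71 to 0.517, 0.234 and 0.463 (−1.80, SE 0.33), and Sc5d, a late sterol desaturase, from 1.27, 1.18 and 1.25 to 0.784, 0.71 and 0.656 (−0.79, SE 0.13). Fdft1, squalene synthase, differed by −0.92 (SE 0.23) and lost its call without any 1 of 5 of the 6 arrays (adjusted p from 0.0662 to 0.103). The fit with the actin ratio called 0 of them, at a median of −0.56.

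Of 44 genes of the respiratory chain and citric acid cycle 18 fell and 0 rose, against 3.32% and 4.18% of all genes. Their median was −0.51, and 43 of 44 differences were below 0. Cs, citrate synthase, went from 1.53, 1.36 and 1.36 to 0.839, 0.959 and 0.866 (−0.67, SE 0.11, adjusted p = 0.00519). Uqcrfs1, the iron-sulphur protein of complex III, went from 1.52, 1.49 and 1.54 to 0.989, 1.01 and 0.864 (−0.67, SE 0.11), and Ogdh, of the citric acid cycle, from 1.46, 1.48 and 1.61 to 0.91, 0.894 and 1.01 (−0.69, SE 0.11). The called falls ran from −0.93 for Suclg1, a succinyl-CoA ligase subunit, to −0.50 for Sdha, a subunit of complex II. The count of falls was 8 without 4wk A, 10 without 4wk B or 4wk C, 11 without 6wk A and 9 without 6wk C, while the actin ratio gave 2 at a median of −0.77, and leaving out 6wk A and B gave 8.

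Fatty acid oxidation held 5 falls and 1 rise among 27 genes, against 3.32% and 4.18% of all genes. The median was −0.42. Acadvl, the very-long-chain acyl-CoA dehydrogenase, went from 1.54, 1.59 and 1.55 to 0.848, 0.999 and 0.772 (−0.85, SE 0.12, adjusted p = 0.00331), and Acaa2, a mitochondrial thiolase, from 1.49, 1.74 and 1.81 to 0.921, 0.971 and 0.882 (−0.86, SE 0.11). Acot1, a cytosolic thioesterase, went the other way, from 0.226, 0.192 and 0.353 to 2.41, 1.67 and 2.49 (3.12, SE 0.24, adjusted p = 0.000143). The fit with the actin ratio called 1 of the list lower, Acadvl, and 1 higher, Acot1 (3.24, adjusted p = 0.0212). Without 4wk A 3 fell, and without 4wk B 2.

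Noncoding RNAs held in the nucleus fell in part, where 3.32% of all genes fell and 4.18% rose. Of 10 tested 4 fell, with Malat1 at −2.46 (SE 0.29) as the mean of 5 probe sets, Neat1, the scaffold of paraspeckles, at −1.43 (SE 0.26), Airn at −0.95 (SE 0.18) and Xist, which coats the inactive X chromosome, at −0.76 (SE 0.17). Malat1 went from 1.81, 2.0 and 0.986 to 0.266, 0.35 and 0.233. Snhg1 and Gas5, hosts of small nucleolar RNAs, rose by 0.86 (SE 0.15) and 0.48 (SE 0.12). In the fit with the actin ratio 0 of the 10 were called, Malat1 having a difference of −2.43 (adjusted p = 0.0869), and without 6wk A and B 1 was, Malat1 (−2.72, adjusted p = 0.0204). Airn lost its call without 4wk B (adjusted p = 0.0512), where 2 of the 4 falls were left. The 5' to 3' control ratios were low on the same 6wk arrays, and their part in these differences was not tested beyond these fits.

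Lists of proliferation, immune cells and muscle held few calls. Over all genes 4.18% rose and 3.32% fell, and the counts of these lists were not tested against those shares. By limma 0 of 36 cell cycle genes were called, 3 were at an unadjusted p under 0.05, 25 differences were above 0 and the median was 0.11. Mki67, a marker of dividing cells, had 1.23, 0.783 and 1.1 at 4wk and 0.98, 1.02 and 1.28 at 6wk (0.09, SE 0.45, adjusted p = 0.932). Of 27 macrophage genes 1 rose, Cd14, a receptor of bacterial lipid also made by mammary epithelium, from 0.583, 0.541 and 0.575 to 1.39, 1.54 and 1.53 (1.39, SE 0.18), and of 23 lymphocyte genes 1 rose, Gzma, a granzyme (1.13, SE 0.27). Gzma lost its call without 4wk A, 4wk B, 6wk B or 6wk C (adjusted p from 0.06 to 0.109). By limma, 27 interferon genes, 20 skeletal muscle genes and 11 Schwann cell genes had 0 calls each, with 1, 2 and 1 at an unadjusted p under 0.05, and Krt15 was the only call among 15 skin keratinocyte genes, 10 of which were below 0.

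Endothelial genes went both ways, with 2 rises and 3 falls among 25, where 4.18% of all genes rose and 3.32% fell. Cdh5, the cadherin of vessels, went from 2.73, 2.09 and 1.5 to 0.8, 0.599 and 0.934 (−1.42, SE 0.31), and Vwf, the clotting factor stored in vessels, from 0.622, 0.565 and 0.755 to 1.19, 1.42 and 1.16 (0.96, SE 0.21). Cdh5 lost its call without 4wk A, 4wk B, 6wk A or 6wk B (adjusted p from 0.055 to 0.0771), and Vwf without 4wk A, 4wk B or 6wk B (adjusted p from 0.0603 to 0.0749). The other calls were a rise of Pdpn, a mucin of lymphatic vessels and basal cells (0.74, SE 0.17), and falls of Nos3, the nitric oxide synthase of vessels (−0.53, SE 0.13), and Egfl7 (−0.57, SE 0.15). Without any 1 of 4wk A, 4wk B, 6wk A and 6wk B, 0 endothelial genes fell. In the fit with the actin ratio Cdh5 differed by −0.45 (adjusted p = 0.752).

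Stress and growth lists held scattered calls, to be read beside the 4.18% of all genes that rose and the 3.32% that fell. Of 33 immediate early and stress genes 5 rose, led by Hspa1b, a heat shock protein, from 0.422, 0.432 and 0.475 to 1.53, 1.39 and 1.8 (1.82, SE 0.21, adjusted p = 0.00145), which was also called with the actin ratio (2.35, adjusted p = 0.0228). Fos and Jun, transcription factors induced within minutes, rose by 0.84 (SE 0.23) and 0.62 (SE 0.14), and Fos lost its call without any 1 of 10 arrays and Jun without any 1 of 5. The list had 1 rise without 4wk B, 6wk A or 6wk C. Of 14 imprinted genes 2 fell, Grb10, an adaptor that restrains growth (−0.91, SE 0.12, adjusted p = 0.0018), and Gnas, a G protein subunit (−0.68, SE 0.15), which lost its call without 4wk A, 4wk B, 6wk A or 6wk B (adjusted p from 0.0504 to 0.0731). Igf2, a foetal growth factor, differed by −0.03 (SE 0.53, adjusted p = 0.981). The insulin-like growth factor list had 1 rise among 20, Htra1, a protease (0.83, SE 0.22), and 2 falls, Igf1 and Igfbp4, a binding protein (−0.64, SE 0.16). Htra1 lost its call without any 1 of 11 arrays and Igfbp4 without any 1 of 5. The circadian list had 1 fall among 18, Tef, a clock output factor (−1.13, SE 0.26), which lost its call without any 1 of 5 arrays.

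Of 29 cytoplasmic ribosomal protein genes 4 rose, with a median of 0.32, the largest being Rpl22 (0.89, SE 0.17, adjusted p = 0.0125). Without 4wk A 1 rose, and without 4wk B, 6wk B or 6wk C 2 did. Given the actin ratio the median was 0.14 and 0 were called. For comparison, 4.18% of all genes rose and 3.32% fell in the main fit. Of 10 erythroid and haem genes 2 fell, with 8 differences below 0 and a median of −0.65. They were Tfrc, the transferrin receptor (from 1.2, 1.43 and 2.13 to 0.847, 0.759 and 0.704, adjusted p = 0.0181), and Alas1, the first enzyme of haem synthesis (−0.58, SE 0.14). Tfrc lost its call without 4wk B, 6wk B or 6wk C (adjusted p from 0.0503 to 0.0569), and Alas1 without any 1 of 7 arrays.

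Probe sets of 1 gene did not always give the same answer. Of 4023 genes with 2 or more tested probe sets, 752 had at least 1 called. In 298 of those another probe set had the opposite sign, whether called or not and however small its difference. The share of genes with opposite signs over all 4023 was not counted. All probe sets were called the same way in 55 genes. In 7 genes probe sets were called both ways: Cyb5r3, Ndel1, Podxl, Rbm25, Slc44a2, Syncrip and Tgfbr1, which were chosen for this after their values were seen. Slc44a2, a choline transporter, had −1.12 (adjusted p = 0.00706) and 1.55 (adjusted p = 0.00539), and Podxl, a sialomucin of vessels and epithelia, −0.87 (adjusted p = 0.0193) and 0.82 (adjusted p = 0.0136). Csn1s2a was the widest of the named rises, from −0.54 to 6.02 over 3 probe sets. Where on its transcript a probe set lies was not analysed here.

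The step was also split at 5wk. 5wk against 4wk called 139 probe sets (0.752%) and 6wk against 5wk 52 (0.281%), with 2 arrays at 5wk, and both share arrays with 6wk against 4wk. Mycl stood at 1.135 and 1.492 on the 5wk arrays, already at its 6wk level, with 3.78 (SE 0.24, adjusted p = 0.000107) from 4wk to 5wk and 0.03 (SE 0.24) from 5wk to 6wk. Ppara fell in both steps, by 2.77 (SE 0.37, adjusted p = 0.0117) and then by 2.42 (SE 0.37, adjusted p = 0.0315) on the log2 scale. Malat1 was at 2.308 and 1.13 on the 5wk arrays and differed by −0.30 (SE 0.59, adjusted p = 0.864) from 4wk and then by −3.98 (SE 0.59, adjusted p = 0.0315). The luminal median was 1.12 in the first step and 0.32 in the second.

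From 6wk to 7wk, 153 probe sets rose (0.827%) and 24 fell (0.13%), a comparison that shares the 6wk arrays. Several genes of the largest falls were among the rises. Fscn1 differed by 4.05 (SE 0.61, adjusted p = 0.0135), Kcnk3 by 4.18 (SE 0.41, adjusted p = 0.00147) and Ywhag by 3.52 (SE 0.50, adjusted p = 0.00953). Acaca rose by 2.66 (SE 0.26, adjusted p = 0.00147), to 1.42, 1.535 and 1.555 at 7wk, and Scd2 by 2.95 (SE 0.20, adjusted p = 0.000225). Krt15 went the other way, to 0.564, 0.784 and 2.409 (−3.80, SE 0.71, adjusted p = 0.0331). The control ratios of the 7wk arrays were 0.159, 0.140 and 0.041 for actin and 0.763, 0.904 and 0.786 for pyruvate carboxylase.

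Ppara stayed low, at 0.528, 0.411 and 0.357, and its difference of 1.29 from 6wk did not pass (SE 0.33, adjusted p = 0.111). Csn2 rose further, to 16.14, 14.58 and 11.75 (2.75, SE 0.57, adjusted p = 0.049). The luminal list had a median of −0.09 from 6wk to 7wk with 0 calls, and brown adipocyte genes 0.24. The fatty acid synthesis median was 0.19. For that list the median was 0.40 from 3wk to 4wk and −0.17 from 3wk to 6wk.

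**Figure D4:**
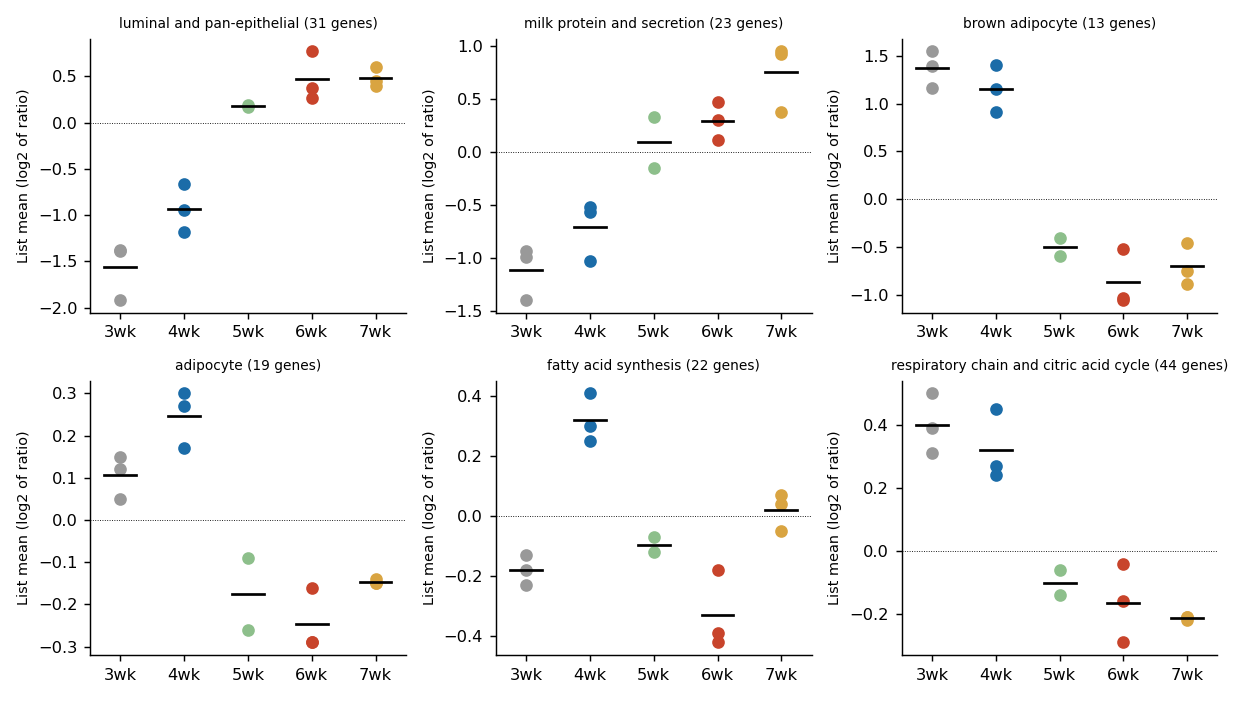
Mean log2 ratio over the tested genes of 6 lists on each of the 14 arrays, by age, with points for arrays and bars for the mean of an age. Luminal and milk genes lie above 0 at 5wk, 6wk and 7wk except 1 milk value at 5wk, and brown adipocyte genes lie below 0 at those ages. Fatty acid synthesis lies between −0.23 and −0.13 at 3wk, between 0.25 and 0.41 at 4wk and between −0.42 and −0.18 at 6wk.

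A comparison with no arrays in common was made between 7wk and 3wk. The actin and pyruvate carboxylase 5' to 3' ratios of these ages do not share the low values of 6wk. Their hybridisation spikes did not overlap, with means of −1.86, −0.789 and −0.971 at 7wk and −0.233, 0.136 and 0.558 at 3wk. The spikes also averaged lower at 6wk than at 4wk (−0.846), and their part in what the 2 comparisons share was not tested. Both comparisons use the same estimate of the spread of each probe set, so their calls are not independent. Probe sets called in 1 of them tend to have a small spread, and the shares called over all are only a loose background. Of the 717 probe sets that rose from 4wk to 6wk, 683 (95.3%) were also higher at 7wk than at 3wk and 372 (51.9%) were called higher there, while 3 were called lower. Over all 16908 probe sets that name 1 gene, 59.4% were higher and 6.15% were called higher. Of the 664 that fell, 448 (67.5%) were lower and 117 (17.6%) were called lower, while 15 were called higher, against 40.6% and 2.57% over all. The median difference between 7wk and 3wk was 0.72 for the rises and −0.20 for the falls. Csn1s2a (8.22), Mal2 (4.33) and Ppara (−4.15) are among those called in both, and Fscn1 (0.46, adjusted p = 0.714), Ywhag (−0.02, adjusted p = 0.988) and Acaca (0.82, adjusted p = 0.075) are not.

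**Figure D5:**
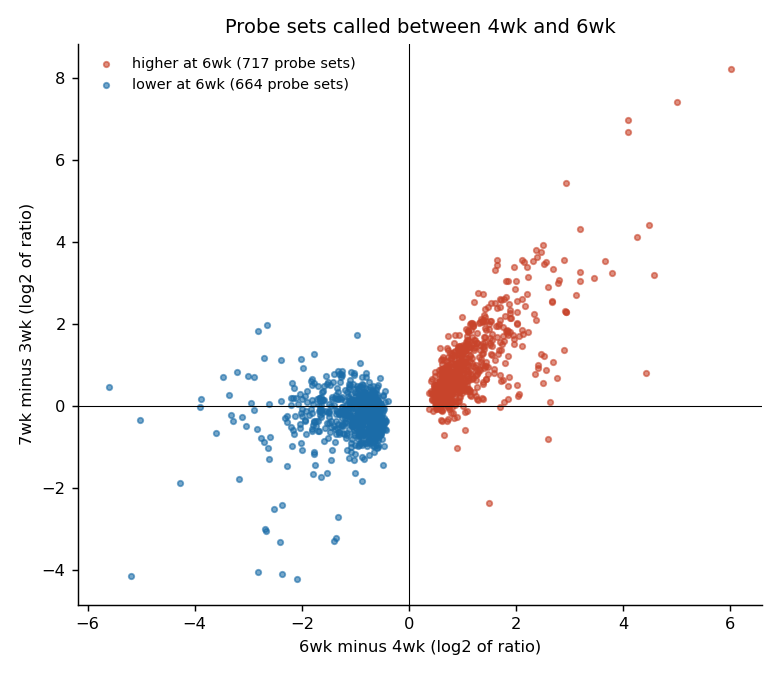
Difference between 7wk and 3wk (vertical) against the difference between 6wk and 4wk (horizontal), both on the log2 scale, for the 1381 called probe sets that name 1 gene. Of the 717 red points (higher at 6wk) 683 lie above 0, and of the 664 blue points (lower at 6wk) 448 lie below 0.

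Calls made in the fit with the actin ratio held genes of both directions. Of the 91, 82 name 1 gene, 33 higher and 49 lower, and 75 of these 82 were also called without the covariate. Among the rises were Mycl (4.38, SE 0.33, adjusted p = 0.00162), Pla1a (2.37, SE 0.21), Gnaz (2.87, SE 0.30), Crabp2 (4.47, SE 0.65), Csn2 (5.36, SE 0.91, adjusted p = 0.0417) and Erbb3, a receptor tyrosine kinase of the duct (1.62, SE 0.29). Tgm2, a transglutaminase, was called on 3 probe sets, at 2.42, 1.86 and 2.57, the first of which was not called without the covariate (1.09, adjusted p = 0.0646). Among the falls were Ppara (−5.29, SE 0.60), Cox7a1 (−3.22, SE 0.38), Scd2 (−2.98, SE 0.37), Acaca (−3.53, SE 0.45) and Fscn1 (−6.49, SE 1.06, adjusted p = 0.0387). Tkt and Pgd, enzymes of the pentose phosphate pathway, which supplies reducing power for lipid synthesis, fell by 1.18 (SE 0.18) and 1.29 (SE 0.23) on the log2 scale. Erbb3, Tgm2, Tkt and Pgd were picked from these calls after their values were seen.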

How the data were processed

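Expression was measured on 14 single-colour Affymetrix arrays, with ages as in the labels. The authors deposited linear ratios, since 98.48% of probe sets have a median of 1 (within 0.001) over the 14 arrays. Signal software and scaling were not given in the sources used here. As controls, 64 probe sets were left out. Levels before division were recovered from the step of the values, and 4134 probe sets under 200 steps on all arrays or all but 1 were left out. In 6000 simulated probe sets 99.27% of low ones were found and 0.13% of others wrongly called low. Array medians differed by at most 0.0938 (log2), so the log2 ratios were not normalized further, and no offset was added. The number of arrays limits the precision. Detection calls were not used here, so a fold against an age near background depends on that background.

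Age was the only factor of the model, which took in all 14 arrays (R 4.3.3, limma 3.58.1, lmFit, eBayes, two-sided, Benjamini-Hochberg within each comparison). In simulated data with 200 of 18492 probe sets changed, 40%, 72%, 88% and 92% were called at log2 changes of 1, 1.5, 2 and 3. There were 7 false calls. The simulated noise was normal, independent and equal at all ages, and no RNA length differed. In the real data 8.06% were called, so these rates check the fit and need not hold there. Tables used Python 3.11.15 with pandas 2.3.3 and numpy 2.4.6, and plots matplotlib 3.10.9. Gene names are from the platform annotation: 691 probe sets name several genes and 1555 none, and 20351 of 20380 matched RefSeq by gene identifier.

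The members and the 29 gene lists were chosen with earlier results of these data known. Named genes are the 12 largest rises and falls among called probe sets with no overlap between ages, the 10 smallest adjusted p (1700037H04Rik, of unknown role, among them, at −2.21), up to 4 called members per list or, where none was called, up to 2 members (not all of these are printed), and 13 fixed genes (such as Krt8, Csn2, Wap, Esr1 and Ucp1). Other list members are named as examples, chosen after their values were seen.
Alternatives covered the filter, offset, normalization, covariates from control probe sets, the arrays fitted, robust and weighted fits and a block on the array letter.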

Additional observations from a re-analysis of the deposited data

How the results depend on the processing

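The count of 1491 called probe sets was 1567 with an offset of 0.1, 1555 after quantile normalization, 1587 after centring, 1721 with array weights, 1451 with robust moderation and 1139 with no filter. It was 389 with only the 4wk and 6wk arrays (fewer residual degrees of freedom), 747 with the hybridisation spikes as a covariate, 91 with the actin ratio, 0 with the pyruvate carboxylase ratio and 336 without 6wk A and B. It was 612 at 2-fold or more and 800 by gene. Leaving out single arrays gave 603 (without 4wk B) to 1684 (without 3wk A), and 718 without 4wk A, 844 without 6wk A, 942 without 6wk B and 968 without 6wk C. Apart from the construction of these fits, the cause was not tested. The share of rises among calls was 38.5% with the actin ratio, 41.7% without 6wk A and B, 44.3% without 4wk B and 40.2% without 6wk C.

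Deviations of arrays with the same letter correlated at 0.0152, 0.0057 and 0.0456, and those of arrays with different letters at −0.0512 to 0.0374. These are deviations from the mean of few arrays, and the labels leave unsaid what the letters mark. The correlations therefore cannot decide whether the letters pair the arrays. The replicate block gave 1375 calls. Of 123 single results 109 were called. With the actin ratio 25 of these kept their call, with the pyruvate carboxylase ratio 0, without 6wk A and B 50, with 6 arrays alone 54, with the spikes 77, and under each of the other settings 98 or more. Leaving out single arrays kept 71 to 107. Of the 109, 1 changed sign: Msx2, at −0.02 with the pyruvate carboxylase ratio. That ratio left a median SE of 0.67, against 0.22, so few differences could be called.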

Other observations

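Families taken by symbol after the values were seen are given as counts only, beside the 4.18% of all genes that rose and the 3.32% that fell. Of 30 keratins 7 rose and 0 fell, and the median of the family was 0.08. The keratins that rose were Krt8, Krt14, Krt15, Krt17, Krt18, Krt19 and Krt23. Krt23 (adjusted p = 0.0479) lost its call without any 1 of 11 arrays and Krt17 without any 1 of 9. Of 13 claudins, the proteins that seal tight junctions, 4 rose (Cldn3, Cldn7, Cldn8 and Cldn10) and 0 fell, with a median of 0.73. Of 46 genes of the Hspa and DnaJ chaperone families 4 rose and 0 fell.

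Of 74 genes of the mitochondrial ribosome 5 fell and 0 rose, with a median of −0.16 (−0.36 with the actin ratio, with 0 called). The 32 mitochondrial carriers of the Slc25 family held 3 falls and 1 rise, and 32 collagens 2 falls and 0 rises. The 16 semaphorins, 9 Srsf splicing factors and 14 myosins held 0 calls each.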
